A study of Arabidopsis thaliana with 12 samples.

Results

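The low-oxygen response genes are a list of 43 Arabidopsis loci known for their response to oxygen shortage. A gene counted as measured where the platform's gene table paired a probe set with that gene and no other, and the brightest probe set was to stand for it. This rule found 23 of the 43, on an array of 22746 probe sets besides its controls. Each of the 23 had 1 probe set, so brightness decided nothing, and all 23 were among the 13647 probe sets bright enough to be tested (mean log2 signal over the 12 arrays above the 40th percentile). The array's gene table covers 13286 genes in this way. The list was put together with earlier results of these data known, so a count over it describes these genes and is not independent evidence about them.

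The series holds 12 arrays of total RNA from whole Arabidopsis thaliana seedlings of the Columbia (Col-0) ecotype, 10 days old and grown at 22 °C. It asks how transcripts behave in plants with and without IRE1 when the endoplasmic reticulum (ER) is stressed and new transcription is blocked. There were 4 groups of 3 arrays: wild type with mock treatment, wild type with tunicamycin, the double mutant ire1a ire1b with mock treatment, and ire1a ire1b with tunicamycin. Every group, the mock groups included, was kept in 75 µM of the transcription inhibitor actinomycin D from 2 h before the treatment. Tunicamycin, which blocks N-glycosylation and so loads the ER with misfolded protein, was given at 5 mg/l for 5 h, and mock plants had its solvent DMSO in its place. Plants without actinomycin D and plants short of oxygen were not among the groups. Whether the 3 arrays of a group stand for separate cultures is not given in the labels, so the p-values reflect only how far these samples differ, and that spread may be technical. Since IRE1A and IRE1B lack a probe set of their own here, the mutant label was not checked by its targeted genes.

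Plant cells that run short of oxygen lose most of their mitochondrial ATP and turn to fermentation, in which pyruvate decarboxylase and alcohol dehydrogenase make ethanol and lactate dehydrogenase makes lactate, both regenerating NAD+ for glycolysis. Transcription factors of the ERF-VII family, such as RAP2.12, act as oxygen switches: plant cysteine oxidases mark them for destruction while oxygen is present, and they persist and turn on their targets when it is not. IRE1 is a kinase and RNase of the ER membrane that splices the bZIP60 transcript and also cuts other transcripts at the ER during stress.

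The 20 listed genes with no probe set of their own here include ADH1, PDC1, SUS1 and SUS4 of fermentation and sucrose breakdown, the transcription regulators HRE1, HRE2 and LBD41, the cysteine oxidases PCO1 and PCO2, the haemoglobin gene HB1 and the ethylene receptor gene ETR2. The measured genes were therefore 2 of 8 in fermentation and carbohydrate use, 4 of 9 in oxygen binding, redox, calcium and transport, 1 of 6 in oxygen sensing and transcription, 1 of 5 in hormone and light signalling, and 15 of 15 with another or an unknown role. They lie on all 5 chromosomes, with 4, 1, 4, 6 and 8 measured genes on chromosomes 1 to 5. AT3G10020 and AT3G10040 are near neighbours, with 1 protein-coding gene between them in the RefSeq annotation (TAIR10.1).

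Signal is the deposited linear array intensity of a probe set, which the authors had scaled so that the 2% trimmed mean is about 500.1 on every array. The median signal of the arrays lay between 106.7 and 118.8. All changes are thus relative to the bulk of each array, and levels of different genes are not set against each other, because probe sets differ in brightness. In RNA of whole seedlings, fewer cells of a type and less RNA per cell cannot be told apart. The seedling label could be checked only weakly, by marker lists of green tissue (1 of 13 with a probe set) and of roots (3 of 14). RCA, the Rubisco activase gene of green tissue, had signals of 25082 to 30450.0 over the 12 arrays, and its genotype difference was -0.01 ± 0.08 under mock and -0.01 ± 0.08 under tunicamycin (log2 ± SE). The root gene EXPA18 differed by 0.31 ± 0.29 and 0.32 ± 0.29, with adjusted p of 0.85 and 0.563. Its signal of 54.8 on wild-type tunicamycin array 3 was under 68.7, the filter on dim probe sets. PYK10, a root-rich glucosidase of ER bodies, read 9633, 10241 and 10328 in wild-type tunicamycin arrays and between 21963 and 25548 on the other 9, so it was higher in the mutant under tunicamycin (1.29 ± 0.07, adjusted p = 2.18e-07). EXPA7, the other root gene with a probe set, was too dim to be tested. The part of organ make-up in the differences below was not tested.

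The measured genes moved together from array to array, and 1 array stood apart from its group. Against the wild-type mock mean, the median of the 23 log2 signals was -1.05 on ire1a ire1b mock array 1 and -0.93 on array 3, but 0.29 on array 2. On that array 21 of 23 genes had the highest signal of the 3 mutant mock arrays, as did 40.7% of all tested probe sets. The array thus read at or above the lowest wild-type mock array for 21 of 23 genes, against 1 and 2 genes for arrays 1 and 3. Among all tested probe sets 72.2% did so on array 2, 72.4% on array 1 and 62.6% on array 3. In the other groups the medians were -0.08, 0.24 and -0.13 on the wild-type mock arrays 1 to 3, 0.03, 0.02 and 0.46 on the wild-type tunicamycin arrays, and -1.05, -0.80 and -1.37 on the mutant tunicamycin arrays. Wild-type mock array 2 was the highest of its group for 19 of 23 genes, wild-type tunicamycin array 3 for 20, and mutant tunicamycin array 3 was the lowest of its group for 19. For all tested probe sets these shares were 35.6%, 35.8% and 41.7%.

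**Figure D1:**
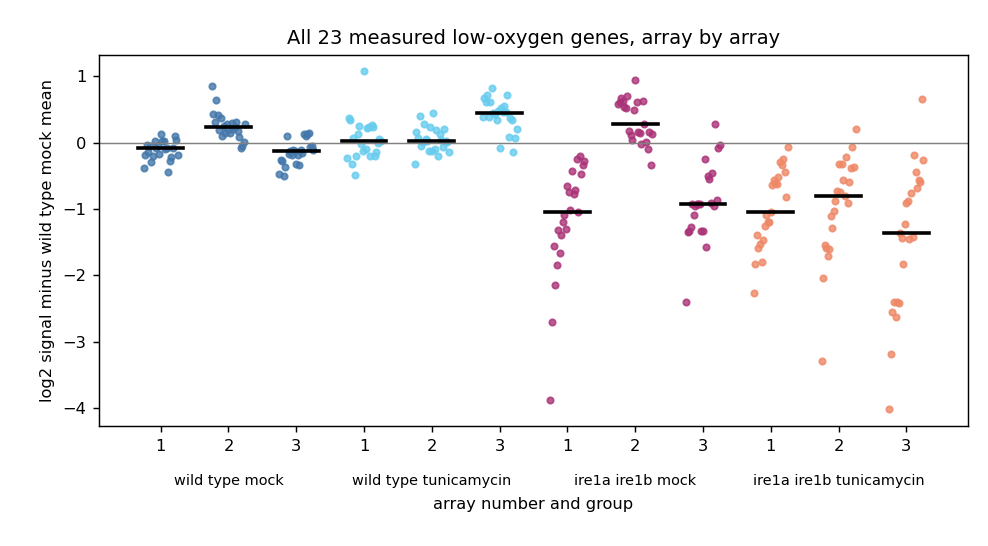
Log2 signal of the 23 measured low-oxygen genes minus their wild-type mock mean (vertical axis), on each of the 12 arrays, with 1 point per gene and a bar at the median. Mutant mock array 2 has a median of 0.29, beside -1.05 and -0.93 on the other mutant mock arrays and -0.80 to -1.37 on the mutant tunicamycin arrays.

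Whether mutant mock array 2 carries mutant RNA was looked at through other genes. In a fit without that array, 23 probe sets passed the test as higher in the mutant under mock. Their median difference from the wild-type mock mean was 1.34 on array 2, beside 1.36 on array 1 and 1.34 on array 3. The 47 probe sets outside the list that passed as lower in that fit had medians of -1.22, -0.56 and -1.03 on arrays 1 to 3. Mock arrays 1 and 3 served to pick both sets, so their own medians follow from that choice. The mutant tunicamycin arrays, which were not compared in that choice, had medians of 1.43, 1.35 and 1.4 for the 23. For the 47 they had -1.03, -0.93 and -1.13. Array 2 read near these arrays for the genes higher in the mutant, and only partly so for those lower. The 47 include further genes reported to rise under low oxygen, such as AT4G17670, so they are not a set apart from such genes. The median SD of log2 signal within a group was 0.80 for the measured genes on the mutant mock arrays against 0.19 for all tested probe sets, and 0.25 against 0.16 on the wild-type mock arrays. What sets this array apart was not tested, and results that rest on it are given with and without it.

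**Figure D2:**
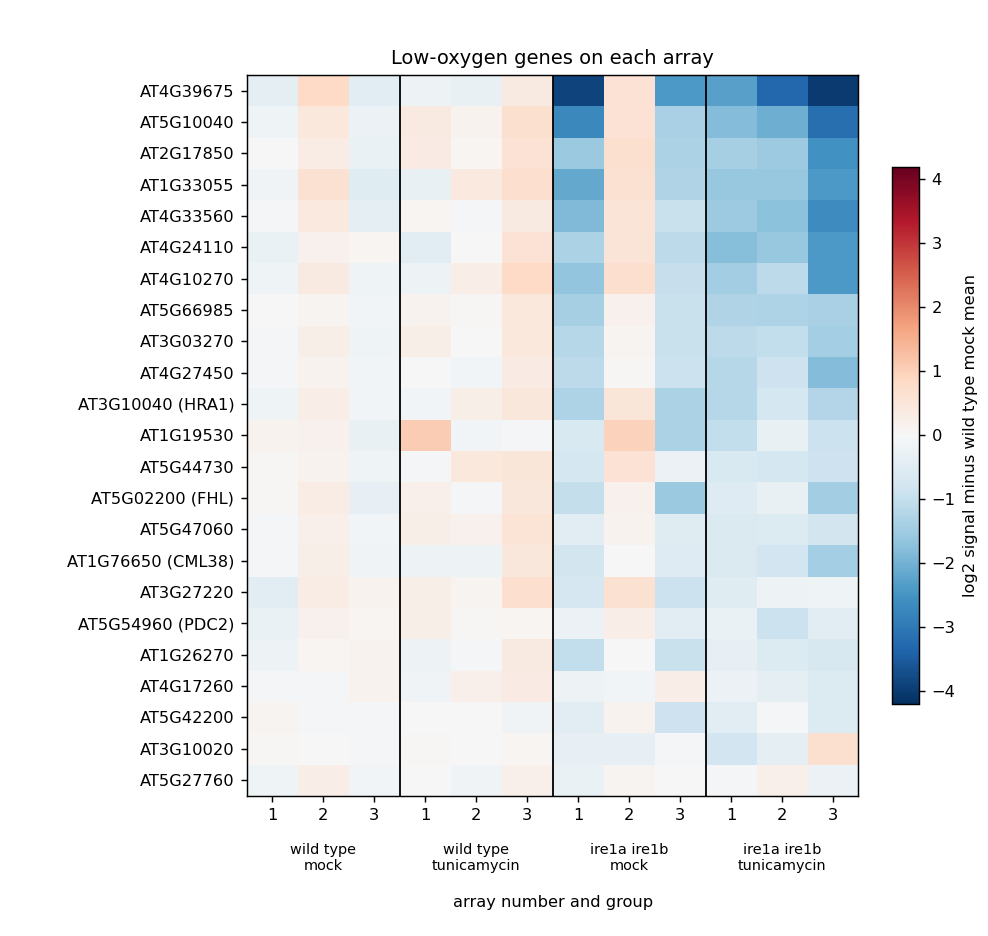
Heat map of the log2 signal of each of the 23 genes (rows) minus its wild-type mock mean, on the 12 arrays (columns, grouped by genotype and treatment). The mutant columns lie below wild type for most genes, except for mock array 2. There 21 of 23 genes read at or above the lowest wild-type mock array (72.2% of all tested probe sets).

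Under tunicamycin the low-oxygen genes were lower in ire1a ire1b than in wild type. Of the 23 measured genes 15 passed limma's test as lower and 0 as higher (0 higher also at an unadjusted p below 0.05), where 3.03% of all tested probe sets passed as lower and 6.68% as higher. The difference was 2-fold or more for 11 of the 15 and smaller for 4. All 23 differences were negative, with a median of -1.05 (log2) beside -0.08 for all tested probe sets, of which a share of about 0.628 was below 0. In 20 of 23 genes every mutant tunicamycin array lay below every wild-type tunicamycin array, which held for 16.3% of all tested probe sets, and in 18 it also lay below every wild-type mock array (5.4%). Of the 15 calls, 8 held in every one of up to 20 alternative fits tried and 7 were lost in some of them. The number of genes passing as lower was 8 when array 3 of the wild-type tunicamycin group was left out, and 9 when either array 2 of that group or array 3 of the mutant tunicamycin group was. It was 19 without mutant mock array 2, whose spread enters the shared error. The number of all tested probe sets passing as lower moved as well. That number was 413 with all arrays, 187 without wild-type tunicamycin array 3 and 469 without mutant mock array 2. Over the fits that left out 1 array, the median of the 23 stayed between -0.99 and -1.27.

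The 2 fermentation genes passed with small differences. AT4G17260 encodes lactate dehydrogenase, which reduces pyruvate to lactate. Its signals on arrays 1 to 3 were 1571, 1569 and 1826 for wild-type mock, 1495, 1909 and 2087 for wild-type tunicamycin, 1432, 1539 and 2008 for mutant mock and 1399, 1266 and 1113 for mutant tunicamycin. The 3 mutant tunicamycin arrays were the lowest of all 12, while the 2 mock groups overlapped. The genotype difference under tunicamycin was -0.53 ± 0.15 (adjusted p = 0.0437, limma, Benjamini-Hochberg adjustment over the 13647 probe sets tested, as for every adjusted p here). PDC2 encodes a pyruvate decarboxylase, the enzyme that commits pyruvate to ethanol. Its signals were 692, 946 and 893 for wild-type mock, 986, 857 and 885 for wild-type tunicamycin, 704, 1019 and 608 for mutant mock and 682, 445 and 614 for mutant tunicamycin. The tunicamycin groups did not overlap, and 1 mutant mock array, array 2, was the highest of the 12. The difference under tunicamycin was -0.67 ± 0.20, just inside the threshold (adjusted p = 0.0498). Both calls were the least stable of the 15: that of the lactate dehydrogenase gene was lost in 10 of 20 alternatives, with an adjusted p of up to 0.175 without wild-type tunicamycin array 3. The PDC2 call was lost in 11 of 20, with an adjusted p of up to 0.188 without mutant tunicamycin array 2.

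Among the 4 genes of oxygen binding, redox, calcium and transport, 2 passed. AT3G03270, known as HRU1, encodes a universal stress protein tied to hydrogen peroxide production under low oxygen. Its signals were 3788, 4757 and 3518 for wild-type mock, 4760.1, 4041 and 5391 for wild-type tunicamycin, 1734, 4310.4 and 2092 for mutant mock and 1866, 1960.5 and 1468 for mutant tunicamycin. Every mutant array except mock array 2 lay below every wild-type array. The difference under tunicamycin was -1.42 ± 0.26, or 2.68-fold lower (adjusted p = 0.00277). CML38 is a calmodulin-like calcium sensor found in RNA granules of oxygen-starved cells. It had 1037, 1302 and 984 for wild-type mock, 955, 958 and 1519.5 for wild-type tunicamycin, 642, 1086 and 754 for mutant mock and 716, 630.3 and 410.2 for mutant tunicamycin. Its tunicamycin groups did not overlap, and the difference was -0.97 ± 0.24 (adjusted p = 0.0217), with an adjusted p of 0.108 without wild-type tunicamycin array 3. AT5G27760, a member of the HIG1-domain family of mitochondrial proteins, did not pass: its means were 4439 ± 529 in wild type and 4235 ± 688 in the mutant (SD, n = 3). The groups overlapped, and the 95% interval of the log2 difference ran from -0.40 to 0.26. AT1G26270, of the phosphatidylinositol kinase family, had 439 ± 94.6 against 293 ± 36.9 and missed the threshold (-0.57 ± 0.24, adjusted p = 0.173).

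HRA1, a trihelix protein that restrains RAP2.12, was the only measured gene of the sensing and transcription group. Its signals were 135, 185 and 139 for wild-type mock, 139, 178 and 211 for wild-type tunicamycin, 61.4, 213 and 59.96 for mutant mock and 65.9, 91.4 and 64.9 for mutant tunicamycin. The tunicamycin groups did not overlap, but the difference of -1.25 ± 0.39 missed the threshold (adjusted p = 0.0607). On 4 of the 6 mutant arrays its signal was under 68.7, the value of the filter on dim probe sets, where signals vary more and the size of a difference is uncertain. FHL, which helps carry phytochrome A into the nucleus, had 175 ± 33.4 in wild type and 92.7 ± 33.9 in the mutant under tunicamycin, and 1 mutant array of each treatment was under that value. Its difference of -0.98 ± 0.39 did not pass either (adjusted p = 0.138).

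The largest differences were in genes of other or unknown role, of which 11 of 15 passed. AT4G39675 had signals of 1267, 2987 and 1197 for wild-type mock, 1416, 1322 and 2168 for wild-type tunicamycin, 112, 2495 and 313 for mutant mock and 343, 169 and 102 for mutant tunicamycin. It was low on 5 of 6 mutant arrays and within the wild-type range on mutant mock array 2. Under tunicamycin it was 8.81-fold lower (-3.14 ± 0.81, adjusted p = 0.0256). AT5G10040 had 986, 1517 and 934 for wild-type mock, 1454, 1250.1 and 1784 for wild-type tunicamycin, 172, 1713 and 439 for mutant mock and 314, 272 and 123 for mutant tunicamycin. Its mutant mock array 2 was above 5 of the 6 wild-type arrays, while the other mutant arrays were all below wild type, and the tunicamycin difference was 6.76-fold (-2.76 ± 0.60, adjusted p = 0.00872). AT2G17850, of the rhodanese-like sulfurtransferase family, had 1591, 2018 and 1342 for wild-type mock, 2065, 1705 and 2489 for wild-type tunicamycin, 549.8, 2606 and 649.8 for mutant mock and 617, 560.2 and 276 for mutant tunicamycin. Mutant mock array 2 was its highest of the 12, and the tunicamycin difference was 4.51-fold (-2.17 ± 0.46, adjusted p = 0.00775). AT1G33055 had 448, 769 and 349 for wild-type mock, 394, 650.0 and 813 for wild-type tunicamycin, 111, 763 and 204 for mutant mock and 165, 164 and 93.4 for mutant tunicamycin. Mutant mock array 2 lay within its wild-type range and the other mutant arrays below it, and the tunicamycin difference was -2.12 ± 0.54 (adjusted p = 0.0233). Without wild-type tunicamycin array 3 the adjusted p was 0.1 for AT4G39675 and 0.102 for AT1G33055, and both calls were lost.

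**Figure D3:**
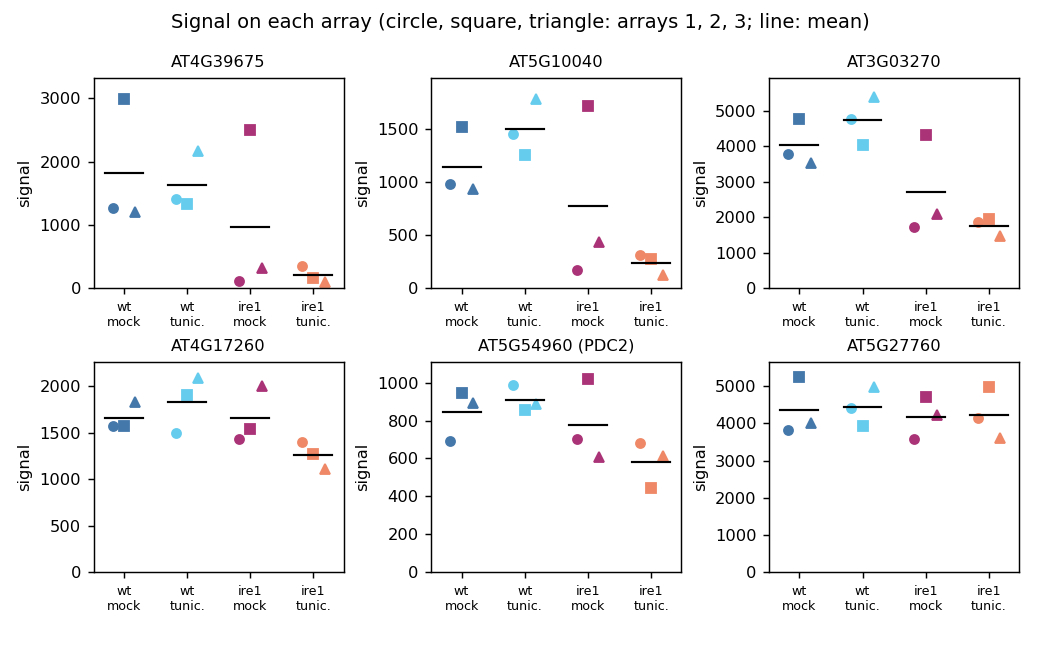
Signal (linear axis from 0) of 6 low-oxygen genes on each array, by group, with circles, squares and triangles for arrays 1, 2 and 3 and a line at the group mean. AT4G39675, AT5G10040 and AT3G03270 are low on all mutant arrays but mock array 2, the lactate dehydrogenase gene AT4G17260 and PDC2 differ little, and AT5G27760 overlaps in all groups.

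Both measured genes of the wound-responsive protein family passed. AT4G33560 had 427, 589 and 344 for wild-type mock, 464, 429.7 and 577 for wild-type tunicamycin, 124, 643 and 233 for mutant mock and 153, 135 and 71.6 for mutant tunicamycin. AT4G10270 had 725, 1074 and 735 for wild-type mock, 721, 1007 and 1467 for wild-type tunicamycin, 261, 1355 and 429 for mutant mock and 299, 385 and 156 for mutant tunicamycin. Both were low on all mutant arrays other than mock array 2, with no overlap between the tunicamycin groups. The differences were -2.09 ± 0.45 for AT4G33560 (adjusted p = 0.00901) and -1.96 ± 0.48 for AT4G10270 (adjusted p = 0.0197, and 0.0959 without wild-type tunicamycin array 3). AT4G24110 had 228, 317 and 298 for wild-type mock, 199, 279 and 425 for wild-type tunicamycin, 112, 401 and 130.3 for mutant mock and 80.3, 92 and 52.5 for mutant tunicamycin, with array 3 of the last group under the filter value. It was lower by 3.93-fold under tunicamycin (-1.98 ± 0.41, adjusted p = 0.00669).

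A further 4 genes passed with SEs of at most 0.28. AT4G27450, of the aluminium-induced protein family, had 6639, 7613 and 6384 for wild-type mock, 6746, 6322 and 8727 for wild-type tunicamycin, 3236, 7069 and 3629 for mutant mock and 3009.5, 3718 and 1928 for mutant tunicamycin. AT5G66985 had 2404, 2543 and 2159 for wild-type mock, 2602, 2457 and 3243 for wild-type tunicamycin, 905, 2677 and 1248 for mutant mock and 988, 964 and 915 for mutant tunicamycin. In both genes all mutant tunicamycin arrays and mutant mock arrays 1 and 3 lay below every wild-type array. Under tunicamycin the differences were -1.37 ± 0.27 (adjusted p = 0.00472) and -1.52 ± 0.28 (adjusted p = 0.00267). AT5G47060, a protein of the FCS-like zinc finger family, had 677, 829 and 665 for wild-type mock, 849, 823 and 1061 for wild-type tunicamycin, 536, 797 and 509.8 for mutant mock and 474, 486 and 425 for mutant tunicamycin. Its difference was under 2-fold, -0.97 ± 0.17, but had the smallest adjusted p of the 23 (0.00206). AT5G44730, of the haloacid dehalogenase-like hydrolase family, had 417, 452 and 359 for wild-type mock, 384, 557 and 584 for wild-type tunicamycin, 244, 624 and 343 for mutant mock and 261, 243 and 222 for mutant tunicamycin. The tunicamycin groups were apart and the difference was -1.05 ± 0.27 (adjusted p = 0.0235, and 0.102 without wild-type tunicamycin array 3).

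The other 4 genes of this class did not pass. AT1G19530 was uneven in wild type, with 2114, 916 and 954 under tunicamycin against 486, 804 and 535 in the mutant (-1.05 ± 0.46, adjusted p = 0.184). AT3G27220, a kelch-repeat protein gene, had 192 ± 42.6 in wild type and 119 ± 14.4 in the mutant (SD, n = 3). AT5G42200, a RING finger protein gene, had 123 ± 7.10 and 99.5 ± 19.2. AT3G10020 ran against the others on 1 array: its signals in mutant tunicamycin were 287, 394 and 806, and array 3, on which most low-oxygen genes were lowest, gave its highest value of the 12. In wild-type tunicamycin it had 530.5, 512 and 532, so the groups overlapped.

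**Figure D4:**
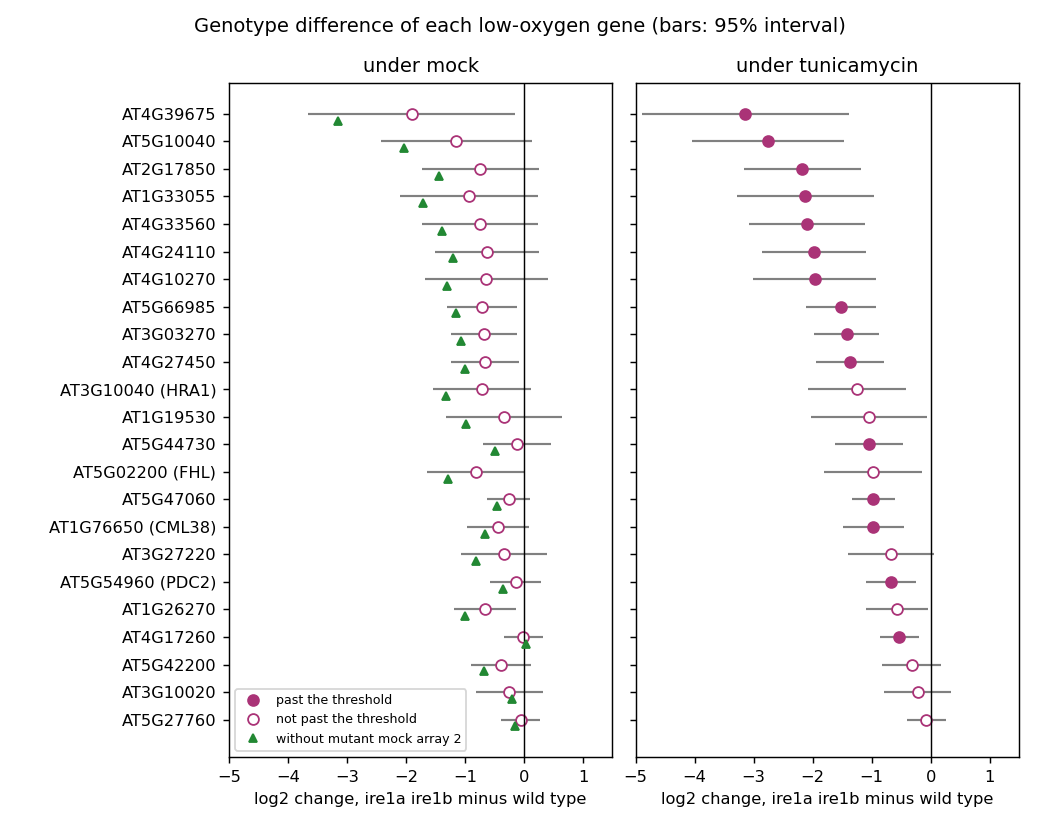
Log2 difference of ire1a ire1b minus wild type for each of the 23 genes under mock (left) and under tunicamycin (right), with bars for the 95% interval of limma's fit. Filled points are genes past the threshold, and triangles, drawn under mock alone, are the fit without mutant mock array 2. All 23 round points lie below 0 in both panels, 15 are filled under tunicamycin and 0 under mock. The triangle of AT4G17260 lies at 0.04.

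The same comparison under mock asks whether the genes were lower in the mutant without tunicamycin. With all arrays 0 of 23 passed limma's test, where 0.322% of all tested probe sets passed as lower and 0.161% as higher. At an unadjusted p below 0.05, 5 were lower, and all tested probe sets were not counted at that cut-off. All 23 differences were negative, from -1.90 to -0.01, and the smallest adjusted p was 0.472. Their median was -0.64, beside -0.02 for all tested probe sets, of which a share of about 0.548 was at or below 0. All 3 mutant arrays lay below wild type in 1 of 23 genes (8.39% of all tested probe sets), whereas arrays 1 and 3 did so in 20 of 23 (18.6%). Without mutant mock array 2 the median was -1.0 and 7 genes passed as lower, where 0.396% of all tested probe sets did. The median moved the other way without mutant mock array 1 (-0.28) or array 3 (-0.40), with 0 passing in both. Array 2 was singled out because these same genes read high on it. Leaving it out therefore lowers their mutant mean and narrows their spread by that choice. The 7 calls and their adjusted p are thus not independent evidence of a genotype difference under mock. With arrays weighted by their fit to the model 14 passed as lower, and so did 4.38% of all tested probe sets, with 2.26% higher, so calls rose in number well beyond these genes.

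The 7 genes that were lower in the mutant under mock without array 2 included the 3 with the largest differences under tunicamycin, but not the next 4, AT1G33055, AT4G33560, AT4G24110 and AT4G10270 (adjusted p from 0.0748 to 0.17). AT4G39675 had -3.15 ± 0.52 (adjusted p = 0.0152), against -1.90 ± 0.81 with array 2. AT5G10040 had -2.03 ± 0.41 (adjusted p = 0.0442) and AT2G17850 -1.45 ± 0.29 (adjusted p = 0.0442). Lower, too, were AT5G66985 at -1.15 ± 0.15 (adjusted p = 0.00605) and the HRU1 gene AT3G03270 at -1.07 ± 0.17 (adjusted p = 0.0126). These 5 also passed under tunicamycin. The remaining 2 did not pass under tunicamycin in the fit with all arrays. HRA1, the restraint on RAP2.12, had -1.32 ± 0.24 under mock (adjusted p = 0.0284), of uncertain size since both mutant arrays left were under the filter value. AT1G26270 had -1.0 ± 0.18 (adjusted p = 0.0293). Without array 2 both also passed as lower under tunicamycin, with adjusted p of 0.00193 for HRA1 and 0.0436 for AT1G26270. The fermentation genes did not pass under mock in this fit either: the lactate dehydrogenase gene was at 0.04 ± 0.17 and PDC2 at -0.35 ± 0.18. This fit was among the planned fits that leave out 1 array, and it was singled out after the array's values were seen. Its adjusted p do not allow for that choice.

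Comparing tunicamycin with mock in wild type asks whether ER stress moved these transcripts while actinomycin D was present in both groups. A response that needs new transcription may not be seen in this comparison. Of the 23 genes 0 passed limma's test in either direction (0 also at an unadjusted p below 0.05), where 0.432% of all tested probe sets rose and 5.77% fell. The differences ran from -0.05 to 0.41 with a median of 0.20, beside 0.09 for all tested probe sets, and 21 of 23 were above 0. Of all tested probe sets a share of about 0.332 was at or below 0, so most were above it too. The median of the 23 depended on single arrays: it was 0.04 without wild-type tunicamycin array 3, 0.12 and 0.13 without wild-type mock array 1 or 3, and 0.34 without mock array 2. In 0 of 23 genes did all tunicamycin arrays lie above or all lie below the mock arrays. The smallest adjusted p was 0.39, for AT5G47060, the FCS-like zinc finger gene (0.33 ± 0.17). The lactate dehydrogenase gene AT4G17260 was at 0.13 ± 0.15 with a 95% interval from -0.20 to 0.46. For AT4G39675 the interval was wider, from -1.80 to 1.70.

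In ire1a ire1b 0 of 23 genes passed for tunicamycin against mock, where 0.044% of all tested probe sets rose and 0% fell. Of the differences 17 of 23 were negative, beside a share of about 0.472 of all tested probe sets at or below 0. At an unadjusted p below 0.05, 8 were lower, a cut-off at which all tested probe sets were not counted. The median was -0.50 beside 0.01 for all tested probe sets. AT4G24110 had the lowest value (-1.30 ± 0.41, adjusted p = 1), and AT4G39675 (-1.29 ± 0.81) and the wound-responsive family gene AT4G33560 (-1.22 ± 0.45) were next, with the same adjusted p. Without mutant mock array 2 the median was -0.15 and 15 of 23 were negative, still with 0 passing. Only 3 of 23 genes had every tunicamycin array below every mock array (2.71% of all tested probe sets). The fit treated the mutant arrays as unpaired, although a check of same-numbered arrays took them as paired.

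The interaction, the tunicamycin effect in wild type minus that in the mutant, tests whether the treatment acted differently in the genotypes under actinomycin D. None of the 23 genes passed in limma, where 0.0879% of all tested probe sets passed as higher and 2.98% as lower. At an unadjusted p below 0.05, 5 were higher, again without a count of all tested probe sets at that cut-off. The median was 0.71 beside 0.07 with all arrays, and 0.36 without mutant mock array 2, again with 0 passing. AT5G47060 came nearest (0.71 ± 0.24, adjusted p = 0.187). The genotype differences under mock and under tunicamycin were thus not shown to differ for any measured gene. All of these comparisons share arrays with one another, so their medians are not separate pieces of evidence.

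**Figure D5:**
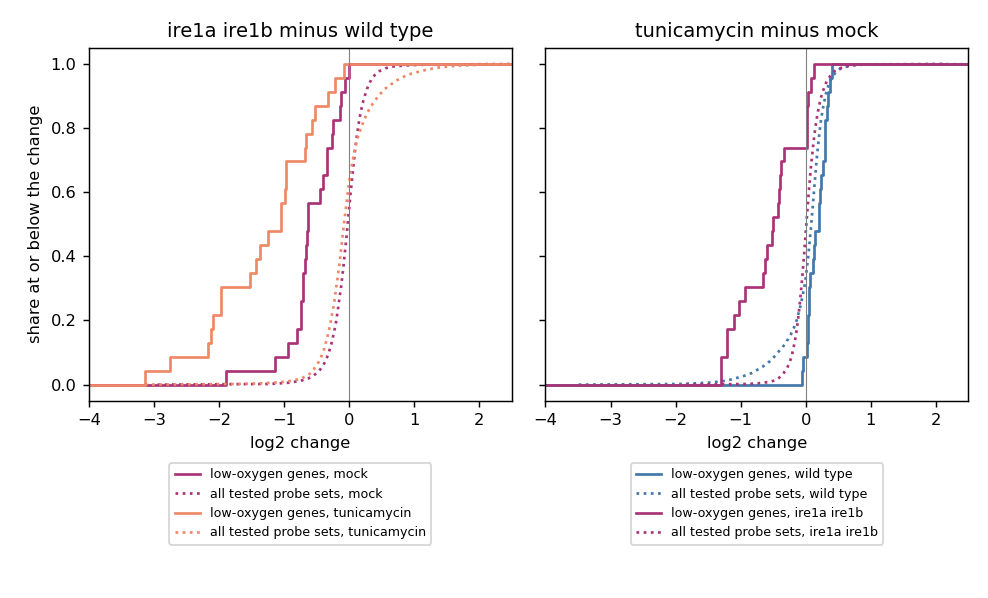
Share of genes (vertical axis) with a log2 change at or below the value on the horizontal axis, for the 23 low-oxygen genes (solid) and all 13647 tested probe sets (dotted). For genotype (left) the medians of the 23 are -0.64 under mock and -1.05 under tunicamycin, and for tunicamycin (right) 0.20 in wild type and -0.50 in ire1a ire1b.

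Other lists of the pathway were scanned for the same pattern. Of 16 further genes reported to rise under low oxygen 6 were tested. This list, too, was chosen with earlier results of these data known. Of the 6 genes 4 passed as lower in the mutant under tunicamycin, beside 3.03% of all tested probe sets. AT5G26200, of the mitochondrial substrate carrier family, was among the 4. All its mutant tunicamycin signals were under the filter value, so it is given by its signals alone. These were 186, 228 and 330.3 in wild type and 38, 48.5 and 26.8 in the mutant under tunicamycin. Of the other 5 tested genes 3 passed as lower in the mutant under tunicamycin. AT4G17670 and AT1G74940 belong, like AT5G47060, to the FCS-like zinc finger family. AT4G17670 had 881, 978 and 1062 for wild-type tunicamycin and 437, 362 and 296 for mutant tunicamycin, with no overlap (-1.43 ± 0.21, adjusted p = 0.000669). AT1G74940 had 578, 553 and 712 in the first and 322, 229 and 199.5 in the second, again apart (-1.32 ± 0.21, adjusted p = 0.000925). AT3G23170 passed as well (-0.86 ± 0.18, adjusted p = 0.00776). PPDK, a pyruvate orthophosphate dikinase, went the other way and did not pass (0.27 ± 0.22, adjusted p = 0.509). AT3G23170 and PPDK were chosen for naming after their values were seen.

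Mutant mock array 2 stood apart in these further genes too. AT5G26200 had 34.2, 247 and 26.2 on mutant mock arrays 1 to 3, and AT3G29970 had 314, 2119.6 and 196. Array 2 was the high one in both, above every wild-type mock array for AT3G29970 and above 2 of 3 for AT5G26200. With array 2 in the fit 0 of the 6 passed under mock. Without it AT4G17670 passed as lower at -0.94 ± 0.17 (adjusted p = 0.0284), while AT1G74940, AT3G23170, AT3G29970 and PPDK did not pass. AT5G26200 passed as lower as well. The size of its difference is not given, since its signals on the mutant arrays left were under the filter value. Under tunicamycin AT3G29970 was at -2.08 ± 0.66 and missed the threshold (adjusted p = 0.0635).

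Genes of related pathways could be read for few members. Of the oxygen sensing genes, RAP2.12 and its regulators among them, 0 of 17 had a probe set of their own here. Of 20 other glycolysis and fermentation enzymes 2 were tested: GAPC2, the cytosolic glyceraldehyde-3-phosphate dehydrogenase, differed by -0.18 ± 0.08 and the triosephosphate isomerase gene TPI by -0.11 ± 0.08 between genotypes under tunicamycin, with adjusted p of 0.167 and 0.463. Of 10 sugar starvation genes the 1 tested, AKINBETA1, a subunit of the SnRK1 kinase, was at -0.09 ± 0.20 (adjusted p = 0.849). The 2 tested of 9 reference genes, SAND and TIP41, were at -0.07 ± 0.12 and -0.30 ± 0.14 and did not pass. Of these 5 genes 0 passed in any of the 5 comparisons.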

How the data were processed

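Arrays of 1 colour were made from total RNA of whole seedlings with biotin label and 3' labelling, per the labels' protocols. The deposited values are linear intensity per probe set, called signal, and come from MAS5 as run by the authors, according to the submitters' processing notes, with a version and settings not given in the sources used here. A common 2% trimmed mean of about 500.1 shows that all arrays were scaled alike, which hides any change common to most transcripts. The number of arrays limits the precision.

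Of 22746 probe sets that are not among the 64 controls, the platform's gene table pairs 13513 with a single gene and 503 with more, and 8730 have no gene there. Of the 13513, 13436 matched a RefSeq gene (TAIR10.1) by its gene identifier. Log2 signals were fitted in limma 3.58.1 (R 4.3.3) with 1 mean per group over all 12 arrays, eBayes with an intensity trend, and two-sided tests with Benjamini-Hochberg adjustment over the 13647 probe sets above the 40th percentile of mean log2 signal (6.10, a signal of 68.7). The threshold was an adjusted p of 0.05. Changes are log2 ± standard error (SE), and signals are mean ± SD.

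The members and gene lists were chosen with earlier results of these data known. Every member could be named, with values per array for those past the threshold in a comparison and for the well-known genes of the pathway. From each other list up to 4 genes with the smallest p for genotype under mock could be named. AT3G23170 and PPDK fall outside this rule. The steps were tested on simulated data.

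Same-numbered arrays were checked for pairing by the correlation of their deviations from the group means. It was 0.11, 0.44 and 0.51 between the mutant groups, above the criterion of 0.1 for all 3 numbers, and 0.13, 0.02 and 0.12 between the wild-type groups, 0.08, 0.34 and 0.39 between the mock groups, and -0.10, 0.00 and 0.03 between the tunicamycin groups. The numbers were thus taken to pair the mutant arrays alone, although 0.11 was only just above the criterion. The main fit did not model this pairing. Its p-values for tunicamycin in the mutant and for the interaction therefore leave it out. Alternatives were another filter and none, log2(signal + 32), median and quantile normalization, array weights, the replicate block, the groups' own arrays, and leaving out each array. The mean over a gene's probe sets changes nothing with 1 probe set each. The RefSeq annotation was used for gene order and chromosomes and no coordinates are given. Promoter and protein sequences were not used here, and the planned motif search was not run.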

Additional observations from a re-analysis of the deposited data

How the results depend on the processing

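In the comparison of genotypes under tunicamycin, the number of low-oxygen genes passing as lower was 15 and lay between 13 and 16 in the fits that changed the filter, normalization, weights, block or arrays used. It lay between 8 and 19 when 1 array was left out. Under mock that number was 14 with array weights and 0 in the other such fits, and 0 to 7 when 1 array was left out. For tunicamycin in either genotype and for the interaction, 0 low-oxygen genes passed in every alternative run. The probe sets under tunicamycin that passed as lower numbered 413, against 264 with each array centred on its median and 264 with the own arrays of the groups, and 187 to 469 without 1 array. The cause of these shifts was not tested.

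Over all tested probe sets the counts moved further. For tunicamycin in wild type the number higher was 59, against 169 with array weights, 89 with the replicate block and 110 with the own arrays of the groups, and 35 to 84 without 1 array. For tunicamycin in the mutant it was 6, against 12, 11 and 1, and 3 to 8 without 1 array, and the number lower was 0, against 1 with array weights. For the interaction the number higher was 12, against 87 with array weights and 5 with the filter at the 60th percentile, and 6 to 29 without 1 array; the number lower was 406, against 853 with array weights. For genotype under mock the number higher was 22, against 14 with the stricter filter, 309 with array weights and 41 with the replicate block. The number lower was 44, against 29 with no filter, 28 with median centring, 598 with array weights and 22 with the own arrays, and 15 to 70 without 1 array.

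With the replicate block 16 low-oxygen genes passed as lower under tunicamycin and 0 in every other comparison. The block ended no call of the genotype difference under tunicamycin. For tunicamycin against mock in the mutant there was no call that it could end. It gave each array number an effect shared by all groups, so it did not model pairing in the mutant arrays alone.

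Changes of sign occurred only among differences that had not passed. Under mock AT4G17260 was at 0.04 with each array centred on its median, and between -0.15 and 0.09 without 1 array. Without 1 array the mock values ranged from -0.15 to 0.083 for AT5G27760, -0.49 to 0.18 for AT5G44730, -0.98 to 0.15 for AT1G19530 and -0.35 to 0.018 for PDC2. Under tunicamycin they ranged from -0.20 to 0.037 for AT5G27760 and -0.64 to 0.10 for AT3G10020.

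Low signal limits HRA1, FHL and AT4G24110, which had 4, 2 and 1 arrays under the filter value, and the filter at the 60th percentile left 18 of the 23 genes. With 3 arrays a group, 1 array can decide a call. The 20 listed genes with no named probe set were not analysed here.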
